A study of Mus musculus with 39 samples.

Results

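A set of 9 genes that build, break down or regulate glycogen, the branched glucose store of animal cells, were followed across 4 groups of mouse brown fat: the synthesis genes Gyg, Gys1, Gys2, Gbe1 and Ugp2, the phosphorylases Pygl and Pygb, and Ppp1r3c and Ppp1r3b, which carry protein phosphatase 1 to glycogen. They are 9 of the 24116 entries of the deposited expression table, and all 9 had a mean of at least 10 normalised counts over the 16 libraries and so entered the fit, as 9 of 13176. The list was chosen by known function, when some earlier results of these data were known, among them the level of Gys2 with and without Cre at 30 °C. Gys2 is therefore described with values and no test, and counts of tested genes are out of the other 8.

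Glycogen synthesis starts on glycogenin, which attaches the first glucose units to itself. Glycogen synthase then lengthens the chains from UDP-glucose, and the branching enzyme adds the branch points. Glycogen phosphorylase releases glucose 1-phosphate from chain ends when hormones or adrenergic signals call for fuel, and protein phosphatase 1, once brought to the particle by a targeting subunit, switches synthase on and phosphorylase off. Brown adipocytes, which burn fuel to make heat, store glycogen beside their lipid droplets.

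RNA came from brown fat dissected from the interscapular depot of male mice on a C57BL/6J background, and all 4 groups carried floxed Bcl6, the gene of a transcriptional repressor. Controls were Cre- and the others UCP1Cre+, so that Cre was driven by the promoter of Ucp1, the uncoupling protein of brown adipocytes, and other cells of the dissected tissue are not meant to carry the deletion. Each genotype was housed at 22 °C or at 30 °C, close to the temperature at which a mouse needs little extra heat, and each of the 4 groups had 4 libraries. The labels give no ages and do not say whether the 4 libraries were from separate animals, so p-values measure the spread between these samples, which may be technical. Bcl6 RNA averaged 1079 ± 509.9 (SD, n = 4) normalised counts in controls and 3305.5 ± 514.5 in Cre-positive libraries at 22 °C. At 30 °C it averaged 1847 ± 608 and 4466 ± 853. The value sums reads over the whole gene and does not check the deleted part, and since it was higher with Cre, those libraries are called Cre-labelled here.

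Totals of normalised counts ran from 8867615 to 13516936 over the 16 libraries, and raw depth is unknown. The 12 brown adipocyte markers examined include genes of fat cells in general (Pparg, Adipoq, Fabp4 and Plin1). All 12 were present, with summed levels from 249634 to 390286 normalised counts in controls and 209470.1 to 322735 in Cre-labelled libraries at 22 °C. At 30 °C the sums were 126429 to 147729 and 121108 to 148879. Summed levels of 15 skeletal muscle markers were far more uneven, from 277 to 4285 in controls at 22 °C, 314 to 35587 in Cre-labelled libraries at 22 °C, 9999 to 17976 in controls at 30 °C and 191 to 30740.1 in Cre-labelled libraries at 30 °C. The 8 macrophage markers summed to 836 to 1548, 1620 to 2301, 2651 to 3397 and 4610 to 12740 in the same order of groups. Since Gys2, Pygl and Ppp1r3b are best known from liver, 8 hepatocyte markers were examined too. Cyp3a11 and Hnf4a were at 0 in all 16 libraries, and Alb reached at most 6.78 normalised counts and Ttr at most 1.79. The highest of the 8 were Apoa2, present in every library at 3.6 to 20.6, and Serpina1a, which reached 10.9. The summed level of the 8 ran from 7.57 to 27.4. In whole tissue, fewer cells of a type and less RNA per cell cannot be told apart.

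**Figure D1:**
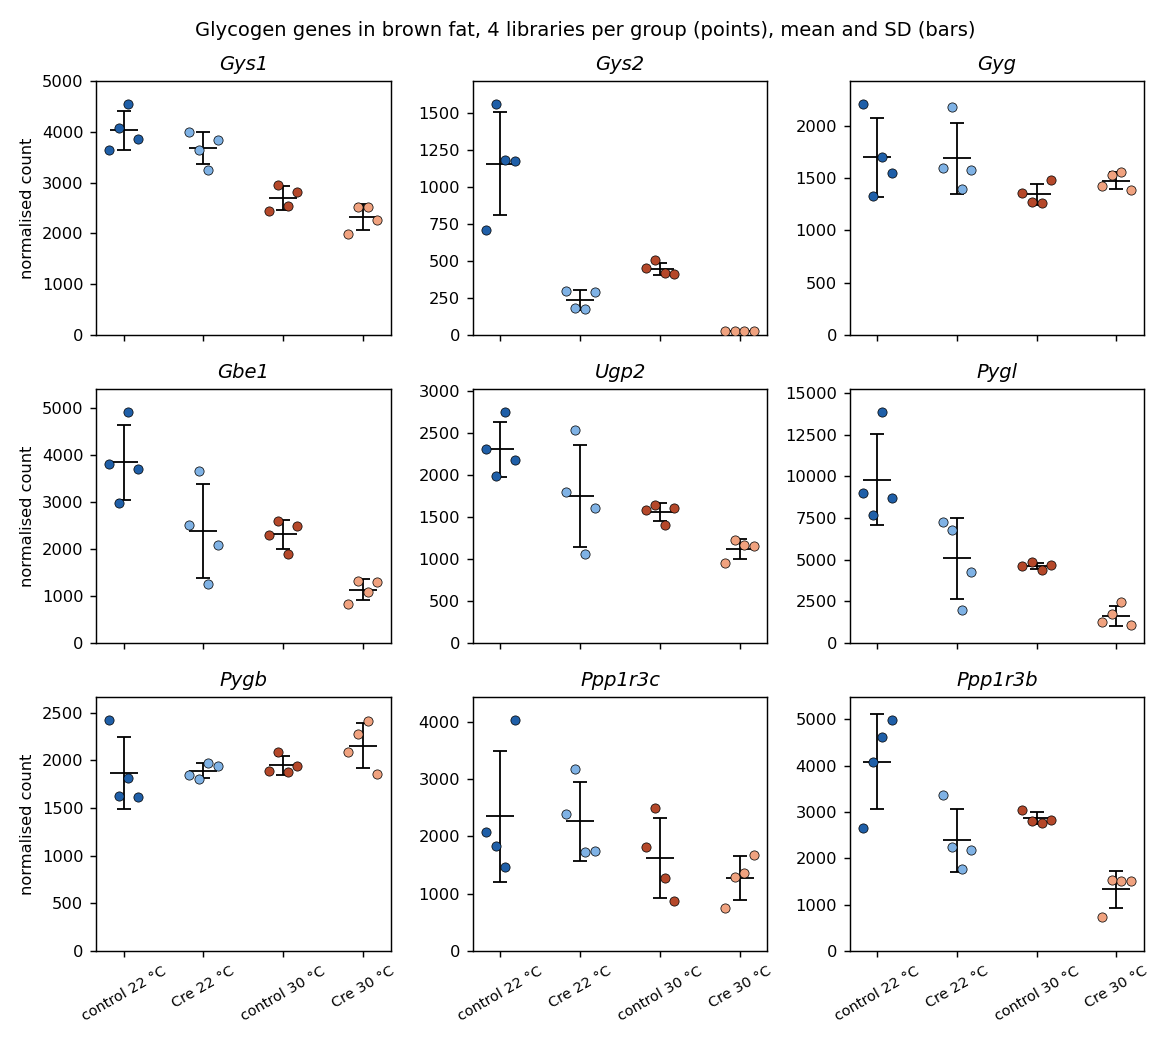
Normalised count (y axis, from 0, each gene on its own scale) of the 9 genes in each library (points) of the 4 groups, control or Cre-labelled (Cre) at 22 or 30 °C, with the mean and SD of 4 libraries (bars). The 4 groups of Gys2 do not overlap one another, with 22.8 to 27.1 in Cre-labelled libraries at 30 °C, while those of Pygb all lie between 1616 and 2421.

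Gys2 encodes the liver-type glycogen synthase. In the 4 control libraries at 22 °C it read 708, 1560.3, 1180.5 and 1175 normalised counts, and with the Cre label at that temperature 294.5, 182, 176 and 291. Controls at 30 °C read 454, 503, 419 and 413.5, and Cre-labelled libraries at 30 °C read 22.8, 27.1, 25 and 26.4. The order of the groups was thus control 22 °C, control 30 °C, Cre-labelled 22 °C and Cre-labelled 30 °C, and none of the 4 ranges overlapped its neighbour. Group means were 1156 ± 349, 447 ± 41, 236 ± 65.6 and 25.3 ± 1.89 (SD, n = 4). The scale used throughout was log2 of the normalised count plus 1. On it, the level with the Cre label was 17-fold lower at 30 °C (log2 difference -4.09) and 4.84-fold lower at 22 °C (-2.28). The level at 30 °C was 2.49-fold lower than at 22 °C in controls and 8.76-fold lower in Cre-labelled libraries. The genotype difference at 30 °C minus that at 22 °C was -1.81, given as a description. These 4 differences share libraries pairwise and are not independent of one another.

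Gys1 encodes the muscle-type glycogen synthase, the form made in most tissues. It read 3649, 4083, 4552.5 and 3860.2 in controls and 3994, 3639.5, 3256 and 3849.6 in Cre-labelled libraries at 22 °C, and the ranges of the 2 groups overlapped. At 30 °C it read 2445, 2965.5, 2550.3 and 2827 in controls and 1985, 2520.5, 2530.5 and 2258 in Cre-labelled libraries, and all 8 of these values lay below all 8 at 22 °C. Gys1 fell with the warmer housing by 1.5-fold in controls (log2 change -0.58 with an SE of 0.11, limma adjusted p = 0.000501) and by 1.59-fold in Cre-labelled libraries (-0.67, SE 0.11, adjusted p = 0.000274). The Cre label made no difference past the threshold of 0.05. The limma intervals were -0.45 to 0.01 at 30 °C (adjusted p = 0.223) and -0.36 to 0.10 at 22 °C (adjusted p = 0.493), neither of which reaches the difference seen for the liver-type synthase.

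Gbe1 encodes the branching enzyme. Its values were 3803, 2981, 4916 and 3714 in controls at 22 °C, 2514, 3664.5, 1254 and 2096 in Cre-labelled libraries at 22 °C, 2293, 2595, 1890 and 2487 in controls at 30 °C and 839, 1315, 1081 and 1292.5 in Cre-labelled libraries at 30 °C. The genotypes did not overlap at 30 °C, while at 22 °C Cre-labelled library 2 lay inside the control range and library 3 lay far below it. Gbe1 fell with the Cre label at 30 °C, from 2316 ± 311 to 1132 ± 222 (SD, n = 4), which is 2.06-fold (log2 difference -1.04, SE 0.25, limma adjusted p = 0.0103). At 22 °C the difference was -0.77 and missed the threshold (interval -1.29 to -0.25, limma adjusted p = 0.0555), which it passed without control library 2 (0.045) or Cre-labelled library 2 (0.0063). Without Cre-labelled library 3 it was -0.50 (limma adjusted p = 0.183). With the warmer housing Gbe1 fell by 1.65-fold in controls (limma adjusted p = 0.0252) and by 1.99-fold in Cre-labelled libraries (adjusted p = 0.00546). In controls this call was lost without 22 °C library 3 (limma adjusted p = 0.0809) or 30 °C library 3 (0.0758).

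Ugp2 encodes UDP-glucose pyrophosphorylase, which makes the glucose donor of the synthases. It read 2311.5, 1987, 2749 and 2177 in controls and 1802, 2539, 1064 and 1609.6 in Cre-labelled libraries at 22 °C. At 30 °C it read 1583.5, 1647, 1410.4 and 1609 and 947.5, 1222, 1164 and 1159. The genotypes were separate at 30 °C and overlapped at 22 °C, where Cre-labelled library 2 was the second highest of the 8 and library 3 the lowest. Neither genotype difference passed the threshold. It was -0.48 (interval -0.88 to -0.08, limma adjusted p = 0.108) at 30 °C and -0.45 (interval -0.85 to -0.06, adjusted p = 0.137) at 22 °C. At 30 °C the call depended on the fit, with a limma adjusted p of 0.00812 when only the 8 libraries compared were used and 0.268 as the highest value when libraries were left out. At 22 °C the difference ran from -0.65 without Cre-labelled library 2 (limma adjusted p = 0.011) to -0.235 without Cre-labelled library 3 (0.43). Ugp2 fell with the warmer housing by 1.47-fold in controls (limma adjusted p = 0.0238) and by 1.5-fold in Cre-labelled libraries (adjusted p = 0.0246). Leaving out library 3 of the controls at 22 °C or at 30 °C raised the first of these limma p-values to 0.0752 and 0.0645, and leaving out Cre-labelled 22 °C library 1 or 2 or Cre-labelled 30 °C library 1 raised the other to between 0.0588 and 0.087, with the difference at -0.38 without 22 °C library 2. It was also lost with only the groups compared (limma adjusted p = 0.0709) and without the pair of sparsest libraries, library 1 of the controls and library 2 of the Cre-labelled group, both at 22 °C (-0.38, 0.0796).

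Gyg encodes glycogenin, the protein on which each glycogen particle is begun. Its group means were 1699.5 ± 374 and 1690.5 ± 339 at 22 °C and 1346 ± 101 and 1475 ± 81 at 30 °C (SD, n = 4, control first), and every pair of groups overlapped. At 22 °C the control libraries read 2211, 1332, 1707 and 1548 and the Cre-labelled ones 1600.1, 2181, 1399 and 1582, so that 1 library in each group lay well above the other 3. These were control library 1 and Cre-labelled library 2, the pair of sparsest libraries named above. Their summed levels of 3 erythrocyte markers, 28662 and 31369, were the highest at 22 °C, and the part of this in the Gyg values was not tested. At 30 °C Gyg read 1361, 1273, 1267 and 1483 in controls and 1428, 1529.6, 1556 and 1386 with the Cre label. None of its comparisons passed the threshold. The limma interval of the genotype difference was -0.17 to 0.44 at 30 °C (adjusted p = 0.627) and -0.31 to 0.30 at 22 °C (adjusted p = 0.994). The temperature difference was -0.31 in controls (limma adjusted p = 0.0866) and -0.18 in Cre-labelled libraries (adjusted p = 0.373). In controls it ran from -0.42 without 22 °C library 2 (limma adjusted p = 0.0276) to -0.18 without 22 °C library 1 (0.285), and was -0.074 after quantile normalization (0.652).

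Pygl encodes the liver-type glycogen phosphorylase. The controls at 22 °C read 8982, 7684.5, 13839 and 8692 and the Cre-labelled libraries at 22 °C 7268, 6783, 1999 and 4244. At 30 °C the controls read 4608, 4866, 4398 and 4651 and the Cre-labelled libraries 1279, 1732.5, 2449 and 1101. Controls at 30 °C were tightly grouped and every Cre-labelled library at that temperature lay below them, while at 22 °C the Cre-labelled libraries were spread over a wide range, all below the lowest control. Pygl fell with the Cre label at 30 °C from 4631 ± 192 to 1641 ± 601 (SD, n = 4), 2.96-fold lower (log2 difference -1.56, SE 0.33, limma adjusted p = 0.00445). At 22 °C it fell 2.11-fold, from 9799.5 ± 2749.9 to 5073 ± 2441 (-1.08, SE 0.33, limma adjusted p = 0.0446), a call lost in 11 of the 20 alternative fits. Without Cre-labelled library 3 the difference became -0.69 (limma adjusted p = 0.132), without control library 3 it became -0.90 (0.139), and without control library 1 or 4 or Cre-labelled library 4 the p was 0.0611, 0.0651 and 0.0947. The warmer housing lowered Pygl 2.06-fold in controls (limma adjusted p = 0.0158, and 0.0557 without 22 °C library 3) and 2.89-fold in Cre-labelled libraries (adjusted p = 0.00192).

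Because Pygl and Gbe1 both fell at 30 °C with the Cre label and fell with temperature in both genotypes, the 250 bases before their annotated starts are shown, from RefSeq on GRCm38.p6, the build also named mm10. Each is written 5′ to 3′ on the gene's strand, with the 50 bases next to the start in capitals. Pygl's window is chr12:70227684-70227933 on the minus strand and that of Gbe1 is chr16:70313699-70313948 on the plus strand.
Pygl: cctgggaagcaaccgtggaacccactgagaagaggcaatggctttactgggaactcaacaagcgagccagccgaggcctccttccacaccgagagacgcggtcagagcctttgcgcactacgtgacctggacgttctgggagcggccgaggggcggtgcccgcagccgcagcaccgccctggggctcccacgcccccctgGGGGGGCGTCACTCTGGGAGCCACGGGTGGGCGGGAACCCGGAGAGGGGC
Gbe1: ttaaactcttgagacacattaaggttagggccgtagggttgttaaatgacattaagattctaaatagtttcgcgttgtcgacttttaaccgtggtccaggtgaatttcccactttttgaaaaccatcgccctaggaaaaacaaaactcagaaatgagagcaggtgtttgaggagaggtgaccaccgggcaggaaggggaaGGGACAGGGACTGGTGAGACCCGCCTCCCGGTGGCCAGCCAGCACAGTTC
With the first 50 transcribed bases included, GC content was 67% in the Pygl window and 54.3% in the Gbe1 window, beside a median of 52.7% over 32817 promoter windows of 300 bases. Windows were at hand for 7 of the 9 genes, Gys2 and Ppp1r3b being the exceptions. A total of 4 motifs were searched on both strands. TTCNNNGAA, the inverted TTC and GAA read by BCL6 and STAT factors, is found in 8.29% of all windows, TNAAGGTCA, read by estrogen-related receptors, in 1.28%, the E-box CACGTG in 7.15% and the cAMP response element TGACGTCA in 1.79%. CACGTG and TGACGTCA share the central letters ACGT, so a site can be either but not both. Neither window shown holds any of the 4. Among the 7 genes only CACGTG occurred, in Gyg 8 bases after the start and in Ppp1r3c 104 bases before it.

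Pygb encodes the brain-type phosphorylase, and its values stayed in a narrow band. Controls at 22 °C read 2421, 1629.5, 1811 and 1616 and Cre-labelled libraries 1851, 1803, 1969.6 and 1942. At 30 °C controls read 1885, 2089, 1881 and 1941.5 and Cre-labelled libraries 2084, 2274, 2411.5 and 1857. Every pair of groups overlapped and no comparison passed the threshold. The limma interval of the genotype difference was -0.11 to 0.39 at 30 °C (adjusted p = 0.515) and -0.22 to 0.29 at 22 °C (adjusted p = 0.885), so that a fall as large as that of the liver-type phosphorylase lies outside both. The temperature intervals were -0.17 to 0.33 in controls (limma adjusted p = 0.609) and -0.07 to 0.44 with the Cre label (adjusted p = 0.258).

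Ppp1r3b encodes GL, the targeting subunit of protein phosphatase 1 that is best known from liver. It read 2651, 4080.2, 4621 and 4979 in controls and 3363, 2247, 1770 and 2190.3 in Cre-labelled libraries at 22 °C, where Cre-labelled library 1 lay above the lowest control. At 30 °C it read 3049, 2805, 2773 and 2837 in controls and 739, 1538, 1518 and 1519 in Cre-labelled libraries, with no overlap and with Cre-labelled library 1 far below the other 3. Ppp1r3b fell with the Cre label 2.25-fold at 30 °C (log2 difference -1.17, SE 0.24, limma adjusted p = 0.00399), and without library 1 the difference was -0.91. At 22 °C it fell 1.71-fold (-0.77, SE 0.24, limma adjusted p = 0.0498), a call at the threshold that was lost in 13 of the 20 alternative fits, among them those without control library 2, 3 or 4 or Cre-labelled library 2, 3 or 4, with limma adjusted p-values up to 0.16. With the warmer housing it fell 1.83-fold in Cre-labelled libraries (limma adjusted p = 0.0103), while in controls the difference of -0.47 missed the threshold (interval -0.98 to 0.03, adjusted p = 0.117) and without 22 °C library 1 passed it (-0.67, adjusted p = 0.0297). With the muscle marker score in the model the control difference became -0.91 (limma adjusted p = 0.00197), and after quantile normalization -0.11 (0.751).

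Ppp1r3c encodes PTG, a targeting subunit made in many tissues. Of the 9 it varied most between control libraries, with a coefficient of variation of 48.7% at 22 °C and 43.2% at 30 °C. Controls at 22 °C read 2071, 1829, 1472 and 4022.5, Cre-labelled libraries at 22 °C 2389, 3178, 1733 and 1741, controls at 30 °C 1822, 2487, 1281 and 875 and Cre-labelled libraries at 30 °C 752, 1284, 1360.1 and 1674.5. No comparison passed the threshold. The limma intervals of the genotype difference were -1.01 to 0.41 at 30 °C (adjusted p = 0.639) and -0.71 to 0.72 at 22 °C (adjusted p = 0.993), wide enough to hold either direction. The Cre-labelled libraries at 30 °C all lay below those at 22 °C, with a log2 difference of -0.84 (limma adjusted p = 0.0647, and 0.0321 when only these 8 libraries were fitted), which became -0.61 without Cre-labelled 30 °C library 1 (0.208). In controls the temperature difference was -0.54 (limma adjusted p = 0.206) and ran from -0.24 without 22 °C library 4 (0.564) to -0.78 with 1 library left out.

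**Figure D2:**
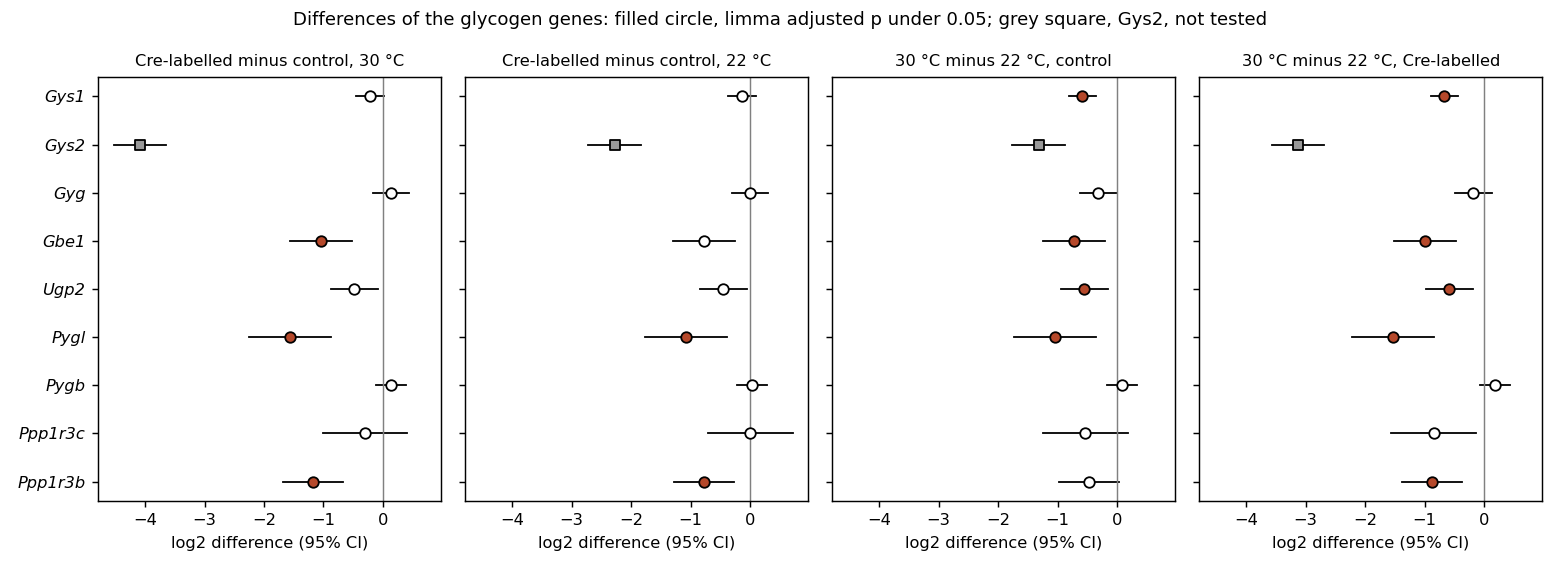
Log2 difference (x axis, log2 of normalised count plus 1) with its 95% confidence interval for the 9 genes in 4 comparisons. Each sets 4 against 4 libraries, and filled circles pass a limma adjusted p of 0.05. The grey square is Gys2, which was not tested, and its interval is a description only. Pygl is filled in all 4 panels and Pygb and Gyg in none.

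Counted over the 8 genes tested, the Cre label at 30 °C went with 3 that fell, Pygl, Gbe1 and Ppp1r3b, and 0 that rose. Of all 13176 genes 6.85% were lower and 5.65% higher in that comparison. The ranges of the 2 genotypes did not overlap for 4 of the 8, beside 22.9% of all genes. The median log2 difference of the 8 was -0.39, beside 0.0055 over all genes. At 22 °C 2 of the 8 fell with the Cre label, Pygl and Ppp1r3b, and 0 rose, beside 4.69% and 5.51% of all genes, and 1 of the 8 did not overlap, beside 12.4%. Their median was -0.29, beside -0.0042 for all genes. The 2178 genes with a mean of at least 1000 normalised counts had a genotype median of -0.05 at 30 °C and -0.11 at 22 °C. The count of 2 at 22 °C is not firm: it was 0 in 6 of the alternative fits, and 0 when control library 3 or 4 or Cre-labelled library 3 or 4 was left out. At 30 °C 8 of 8 macrophage markers were higher with the Cre label, and at 22 °C 5 of 8. Of 12 brown adipocyte markers 2 were lower at each temperature (median -0.40 at 30 °C and -0.12 at 22 °C). Lep, Nnat, Mest, Agt and Slc36a2 were examined as 5 further marker genes of fat, and they do not all mark white adipocytes. Of these 5, 2 were higher and 1 lower with the Cre label at each temperature (median 0.85 at 30 °C and 0.92 at 22 °C). Their summed level at 30 °C was 11155 to 12009 in controls and 18527.5 to 25496.5 in Cre-labelled libraries. At 22 °C it was 13004 to 14519 and 11013 to 13728. The part of these markers in the differences of the glycogen genes was not tested.

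With the warmer housing, 4 of the 8 genes fell in controls (Gys1, Gbe1, Ugp2 and Pygl) and 5 in Cre-labelled libraries (the same 4 and Ppp1r3b), with 0 rising in either. Lower genes made up 22.7% of all genes in controls and 17.7% in Cre-labelled libraries, and higher genes 22.9% and 15.0%. Ranges did not overlap for 4 of the 8 in controls, beside 41.2% of all genes, and for 3 of 8 in Cre-labelled libraries, beside 34.5%, shares close to the background. The medians were -0.54 in controls and -0.76 in Cre-labelled libraries, beside 0.04 and 0.02 over all genes. All genes are an uneven background here: the 2178 genes with a mean of at least 1000 normalised counts, a level that 8 of the 9 reached, had a median of -0.28 in controls and -0.22 in Cre-labelled libraries. When the libraries were forced to 1 common distribution by quantile normalization, 0 of the 8 were lower in controls (Gys1 -0.21, limma adjusted p = 0.133, Gbe1 -0.37, 0.191, Ugp2 -0.28, 0.172, Pygl -0.55, 0.152) and Pygb was higher (0.34, adjusted p = 0.0193). The fall in controls also became 1 gene without control 22 °C library 3 and 2 without control 30 °C library 3. Of the brown adipocyte markers 10 of 12 were lower at 30 °C in controls and 9 of 12 in Cre-labelled libraries, with medians of -0.89 and -1.065. For macrophage markers 8 of 8 were higher in both. Of the 5 further marker genes of fat (Lep, Nnat, Mest, Agt and Slc36a2) 3 were higher and 1 lower in both, with medians of 2.40 in controls and 1.99 in Cre-labelled libraries. The part of these markers in the falls was not tested.

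Whether the genotype difference changed with temperature was tested as an interaction. It passed for 0 of the 8 genes by limma, and 0 had an unadjusted p under 0.05, the lowest being 0.256 for Ppp1r3b. Over all genes 0.175% were higher and 0.266% lower. The difference of the genotype differences was -0.49 for Pygl (interval -1.46 to 0.49), -0.40 for Ppp1r3b (-1.11 to 0.32) and -0.27 for Gbe1 (-1.01 to 0.47). These intervals are too wide to tell a similar fall at both temperatures from one that is larger at 30 °C.

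**Figure D3:**
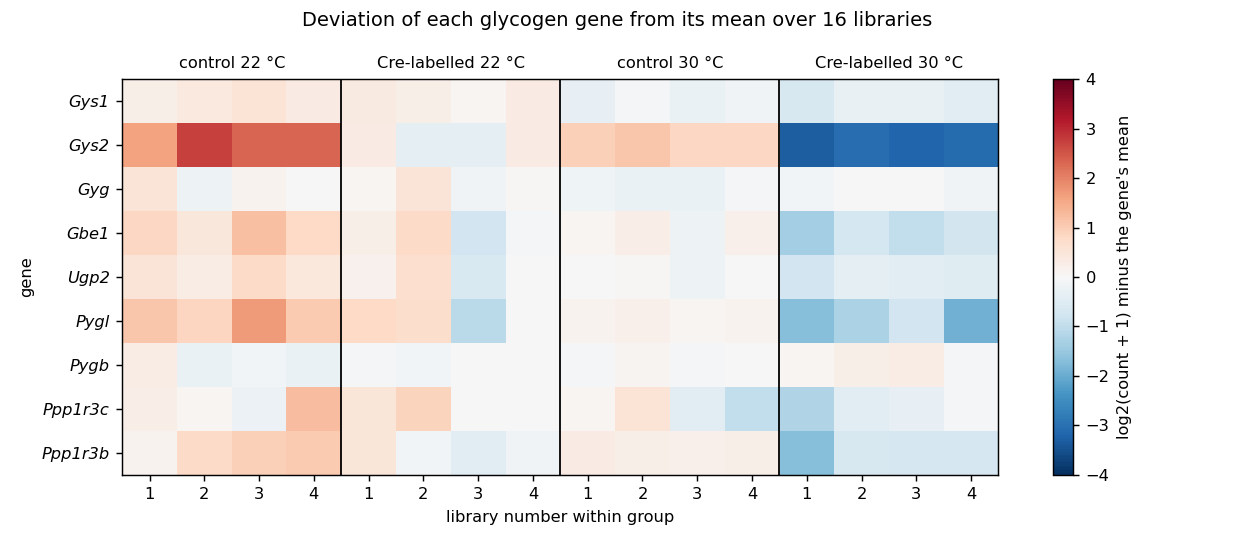
Deviation of each of the 9 genes from its own mean over 16 libraries, on the log2 scale of normalised count plus 1 (colour, red above and blue below), by library number within each group (x axis). Library 3 of the Cre-labelled mice at 22 °C is the lowest of its group in 8 of the 9 genes, and Gys2 carries the deepest colours.

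Except in controls at 22 °C, single libraries stood at the same end of their group in most of these genes. In controls at 22 °C no library was the lowest or the highest in more than 4 of the 9. Whether the same libraries stood at an end in other genes was not examined. Cre-labelled 22 °C library 3 was the lowest of its 4 in 8 of the 9 genes, the exception being Pygb, in which it was the highest. Among controls at 30 °C library 2 was the highest in 7 and library 3 the lowest in 6, and among Cre-labelled libraries at 30 °C library 1 was the lowest in 6.

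Of 34 other genes of glycogen and glucose phosphate metabolism, 32 entered the fit. With the Cre label at 30 °C 5 of the 32 fell and 0 rose, beside 6.85% and 5.65% of all genes. Ppp1cb, the beta catalytic subunit of protein phosphatase 1, fell from 5504 ± 1012 to 2729 ± 403 normalised counts (SD, n = 4, log2 difference -1.005, limma adjusted p = 0.000338). Phka2, the liver-type regulatory subunit of phosphorylase kinase, which turns phosphorylase on, fell from 952 ± 90.9 to 554.5 ± 85.6 (-0.79, limma adjusted p = 0.000607). Slc37a4, the glucose 6-phosphate transporter of the endoplasmic reticulum, fell from 305 ± 31 to 195.5 ± 28 (-0.64, limma adjusted p = 0.0068). The median over the 32 was -0.15. At 22 °C 3 fell and 0 rose, beside 4.69% and 5.51% of all genes, again with a median of -0.15: Phka2 (-0.62, limma adjusted p = 0.00509), Pgm2, listed under that symbol and a phosphoglucomutase, which links glucose 1-phosphate to glucose 6-phosphate (-0.64, adjusted p = 0.00814), and Ppp1cb (-0.50, adjusted p = 0.0429).

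With the warmer housing 8 of the 32 fell and 4 rose in controls, with a median of -0.05. Over all genes 22.7% fell and 22.9% rose in that comparison, so the share that fell was near the background. The 4 with the smallest p were Pgm2, from 3967 to 2123 (-0.91, limma adjusted p = 0.000103), Ppp1ca, the alpha catalytic subunit, from 3571 to 1893.5 (-0.90, adjusted p = 0.000139), Ppp1r3g, another targeting subunit, from 29.6 to 1.81 (-3.55, adjusted p = 0.000197), and Gsk3a, a kinase that turns glycogen synthase off, from 1708 to 1164 (-0.55, adjusted p = 0.000258). Ppp1r3g was near the lower limit of the table, with 1 control library at 30 °C listed at 0. In Cre-labelled libraries 8 fell and 3 rose, beside 17.7% and 15.0% of all genes, with a median of -0.13. The 4 with the smallest limma p were Gsk3a (-0.50, adjusted p = 0.000798), Pgm2 (-0.73, 0.000875), Akt2, an insulin-signalling kinase (-0.56, 0.00403), and Hk2, a hexokinase (-0.81, 0.00436). The interaction passed for 0 of the 32 by limma, with 3 at an unadjusted p under 0.05.

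Among the genes that rose in controls was Pygm, the muscle phosphorylase, taken up here outside the naming rule because it completes the set of phosphorylases. It averaged 135 ± 42.8 in controls and 499 ± 489 in Cre-labelled libraries at 22 °C, and 489 ± 122 and 599.6 ± 474 at 30 °C (SD, n = 4). The rise with temperature in controls was 1.86 (limma adjusted p = 0.0318), in the comparison in which 7 of 15 skeletal muscle markers also rose, and their part in it was not tested. The 3 genes that fell with the Cre label at 30 °C still did with the muscle score as a covariate. Pygl was at -1.44 (limma adjusted p = 0.00641), Gbe1 at -0.99 (0.0171) and Ppp1r3b at -0.999 (0.00114). At 22 °C the same covariate gave 3 lower genes, Pygl at -1.255 (limma adjusted p = 0.0205), Gbe1 at -0.85 (0.0462) and Ppp1r3b at -1.01 (0.00167).

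**Figure D4:**
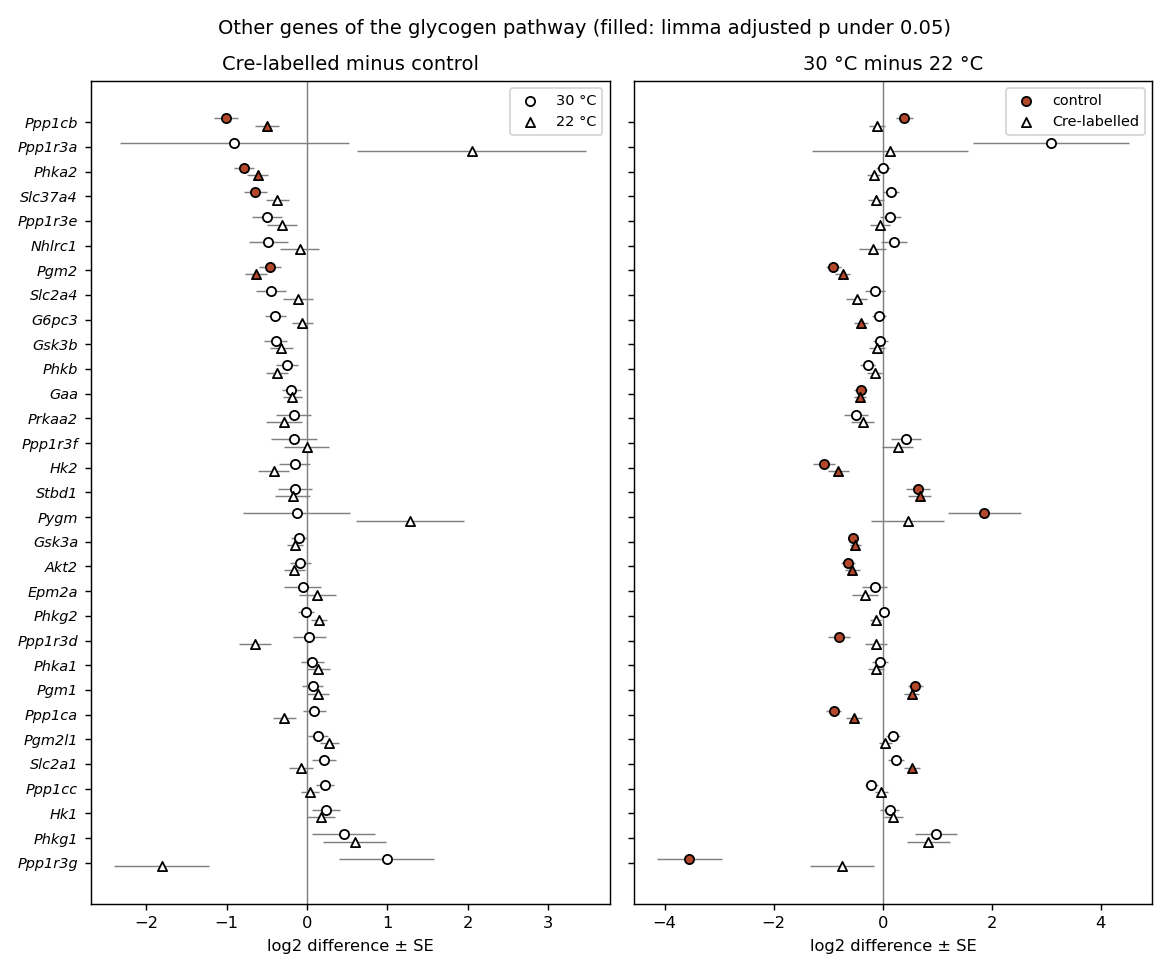
Log2 difference (x axis, log2 of normalised count plus 1, with SE) of other glycogen genes, ordered by the genotype difference at 30 °C. Left, Cre-labelled minus control at 30 °C (circles) and 22 °C (triangles), and right, 30 °C minus 22 °C in controls (circles) and Cre-labelled libraries (triangles), filled where the limma adjusted p was under 0.05, with all filled genotype symbols on the side of lower values and the widest bars on the muscle genes Ppp1r3a and Pygm.

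Likeness of pattern was measured as Pearson's r of the log2 values over the 16 libraries, which share their groups and scaling, so that it is a description. The 5 genes most like Gys2 were Egln1 (0.979), an oxygen-sensing prolyl hydroxylase, Fam234a (0.961), Aldh5a1 (0.956), a succinic semialdehyde dehydrogenase, Stxbp2 (0.955), and Kcnk3 (0.953), a potassium channel. Their group means followed the same order, which the choice by r over these libraries favours. Egln1 averaged 3610.3, 2821, 2298 and 1467 normalised counts in controls at 22 °C, controls at 30 °C and Cre-labelled libraries at 22 and 30 °C. Kcnk3 averaged 6838, 4476, 4200.1 and 2747.5. The range of both was far narrower than that of Gys2. Within the 9, Gys2 was most like Ppp1r3b (0.905), Pygl (0.885) and Gbe1 (0.858), weakly like Ppp1r3c (0.453), close to unrelated to Gyg (0.08), and opposite to Pygb (-0.527).

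Pygl, the highest of the other 8 by mean, was close in pattern to Gpi1 (0.969) and Eno1 (0.967), both enzymes of glycolysis, H2-Q10 (0.962), and Prkaca (0.954), the catalytic subunit of protein kinase A. Gpi1 averaged 12285 and 7932 at 22 °C and 7968 and 5422 at 30 °C, control first. Within the 9, Pygl was most like Gbe1 (0.944) and Ugp2 (0.934), followed by Gys2 (0.885), Ppp1r3b (0.879) and Gys1 (0.826).

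The deposited list of BCL6 peaks in Cre- brown fat, made by the authors on mm10 from mice housed at 30 °C, was searched for peaks assigned to these genes. It holds 3022 peaks of 180 bases, with scores, the authors' own values on a scale not given in the sources used here, from 4.11 to 170 and a median of 5.18. Peaks were assigned to 2 of the 9 genes, beside 14.2% of the 13176 genes tested. The peak of Gyg lies at chr3:20143857-20144037 in intron 4 of 7, 11169 bases from the start, with a score of 13.4, and 92.32% of all peaks score lower. The peak assigned to Ppp1r3b lies in an intergenic stretch at chr8:35205350-35205530, 170301 bases upstream, with a score of 4.47, and 24.12% of peaks score lower. Introns hold 41.8% of all peaks and intergenic stretches 35.0%.

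None of the 9 had a peak assigned to it within 10 kb of its start, where 7.75% of tested genes had one. Gyg alone had one within 50 kb, where 11.9% had. Peaks assigned to a neighbouring gene were not counted. Gyg, the gene with the peak inside it, is a gene whose RNA passed no comparison. The gene of Gys2 spans chr6:142422612-142473130, and the nearest peak ends 29386 bases away, in an intron at chr6:142393046-142393226 that the authors assigned to Golt1b, with a score of 4.65. For Pygl (chr12:70190815-70227683) the nearest peak lay 249407 bases away and was assigned to Tmx1. That of Gbe1 (chr16:70313949-70569720) lay 1742214 bases away. For Ppp1r3b (chr8:35375694-35388139) a peak at the start of Eri1, 107260 bases from the gene, was nearer to its span than the one assigned to it. Nearness is no record of which gene a site acts on.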

How the data were processed

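Polyadenylated RNA was read as stranded libraries with single reads of 75 cycles, per the labels' protocols. Per the submitters' processing notes, the authors quantified reads with kallisto on mm10 and normalised with DESeq2, and the deposited signal, called normalised count here, is 1 value per gene and library. Tool versions, the annotation and any filter are not stated there. Dividing out library size hides any change in total RNA. The values are not whole numbers or multiples of 1 step per library, so reads and depth could not be recovered.

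Values were tested as log2(value + 1), a scale on which changes of low genes come out too small. Genes averaging 10 or more over all 16 libraries entered, and limma 3.58.1 in R 4.3.3 fitted 1 mean per group to all 16, with empirical Bayes moderation, a trend with the mean and two-sided p-values, Benjamini-Hochberg adjusted over the 13176 genes, at a threshold of 0.05. Alternatives changed the pseudocount, filter, scaling, trend, libraries, block or muscle covariate. All members are named in each comparison, with up to 4 other pathway genes of smallest adjusted p and the 5 genes most like Gys2 and Pygl. Pygm was named after its values were seen. Some genes that these rules take are not reported here. The members and gene lists were chosen with earlier results of these data known. The fit was tested on simulated data.

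Per the file headers, BCL6 peaks of the Cre- library were annotated with HOMER on mm10, and the deposited score of each peak was used only to rank peaks. Reads had been aligned with Bowtie2, per the submitters' processing notes. The sources used here do not say how peaks were called or against which control. Gene spans and promoter sequences are from RefSeq on GRCm38.p6, and spans matched all 9 genes by the Entrez gene identifier listed with each symbol. Other ChIP samples of the series were not analysed here.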

Additional observations from a re-analysis of the deposited data

Results flagged for a closer look

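Ppp1r3b in the Cre-labelled libraries at 30 °C had 1 sample far from the other 3: library 1 read 738.8 normalised counts and the others 1518 to 1538. The gap to the nearest took up nearly the whole range of the group, more than Dixon's test allows for 4 samples. Such a gap was looked for in 36 sets of 4 values, and chance gives about 1 in 20. Without library 1 the Ppp1r3b difference with the Cre label at 30 °C was -0.91, against -1.17 with it, and the call held (limma adjusted p = 0.0113). The same library had the lowest summed muscle markers of its group, at 191 beside 4197 to 30740.1. With the muscle score in the model the Ppp1r3b difference was -0.999 (limma adjusted p = 0.00114). The part of these markers in the low value of library 1 was not tested.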

How the results depend on the processing

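The falls of Pygl, Gbe1 and Ppp1r3b with the Cre label at 30 °C kept their direction and stayed past the threshold in all 20 alternative fits, with adjusted p-values up to 0.0412. At 22 °C the count of 2 became 1 with a pseudocount of 0.5, 0 without the filter, with quantile normalization, without the trend, with robust estimation or with only the groups compared, and 4 without the 2 libraries with the fewest genes above 0 (library 1 of the controls and library 2 of the Cre-labelled group, both at 22 °C), and ranged from 0 to 3 with 1 library left out. In controls the count of 4 lower with temperature became 0, and that of higher genes 1, under quantile normalization, and ranged from 1 to 5 with 1 library left out. In Cre-labelled libraries quantile normalization also gave 1 higher gene, Pygb.

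Over all genes, 1647 differed with the Cre label at 30 °C, 2798 without the 2 sparse libraries, and 1008 (without control library 4) to 1598 with 1 library left out, with 1080 without Cre-labelled library 1. At 22 °C 1344 became 525 with only the groups compared, 2350 without the 2 sparse libraries, and 765 (without Cre-labelled library 3) to 2359 (without Cre-labelled library 2) with 1 left out. The interaction's 58 became 37 without the trend, 30 with the muscle score, 178 without the 2 sparse libraries, and 21 to 102 with 1 left out. Peaks assigned to 2 of the genes became 0 within 10 kb and 1 within 50 kb. The cause of these moves was not tested, beyond the smaller number of samples where libraries were left out.

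The labels do not say whether replicate numbers pair samples. Same-numbered libraries of different groups had deviations correlated from -0.48 to 0.238 (median -0.06), with 6 of 24 pairs over 0.1. Of the 16 libraries 1 correlated best with its own number. This check cannot exclude a shared animal, litter or day. With the replicate block 0 of the genes fell at 22 °C with the Cre label and the interaction called 24 of all genes, and the counts of the other comparisons stayed within 1.5 times. Raw depth being unknown, the precision of low values such as Gys2 in Cre-labelled libraries at 30 °C could not be judged from counting error.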

Other observations

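Values of the glycogen genes that belong in no comparison concern single genes of the wider list. Ppp1cb rose with the warmer housing in controls (log2 difference 0.40, limma adjusted p = 0.0412) and had a value of -0.11 in Cre-labelled libraries (adjusted p = 0.622), and the difference of these was -0.50 (adjusted p = 0.413). Ppp1r3g averaged 29.6 and 9.14 normalised counts at 22 °C and 1.81 and 4.41 at 30 °C, control first, with an interaction of 2.80 (limma adjusted p = 0.202). Stbd1, which tethers glycogen to membranes, rose at 30 °C in controls (0.65, limma adjusted p = 0.0218) and in Cre-labelled libraries (0.68, adjusted p = 0.0221). These 3 genes were picked after their values were seen.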
